A study of Mus musculus with 54 samples.

Results

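The genes described here encode 10 chains of cell-surface receptors for interleukin-6 (IL-6), IL-12, IL-18, IL-27 and the interferons: Il6ra, Il6st, Il27ra, Il12rb1, Il12rb2, Il18r1, Ifngr1, Ifngr2, Ifnar1 and Ifnar2. They were chosen by name, with earlier results of these data known. All 10 were among the 55385 genes of both count tables and passed the filter on low counts. RNA was measured by sequencing in mouse CD4+ T cells of C57BL/6 background taken from lymph nodes and spleens that were pooled, with 3 samples per condition. In the CD5/CD6 experiment (36 samples), naive cells were enriched magnetically from wild-type (WT), Cd5-/-, Cd6-/- and Cd5-/-Cd6-/- mice. CD5 and CD6 are related surface receptors, encoded by neighbouring genes, that tune T cell receptor signals. The Cd6-/- allele lacks a short stretch holding the start codon, so its transcript can remain, and the double knockout lacks both genes. In the LAT experiment (18 samples), naive cells were sorted by flow cytometry from Latfl-dtr maT-Cre mice. In these mice Cre deletes Lat late in T cell maturation. WT cells carried the human diphtheria toxin receptor (hDTR+) and Lat-/- cells lacked it (hDTR-). LAT is the adaptor that relays most signals of the T cell receptor. Cells of the former experiment are called enriched and those of the latter sorted in what follows. Cells were analysed untreated (0 h) or after 4 h and 20 h on plate-bound anti-CD3 (3 µg/ml) with soluble anti-CD28 (1 µg/ml). Untreated cells were lysed after purification, so that time in culture and stimulation cannot be told apart.

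These receptors work as pairs of chains. Il6ra encodes the chain that binds IL-6 and Il6st encodes gp130, the shared signalling chain that IL-6 and IL-27 both use, while Il27ra encodes the specific chain for IL-27. Il12rb1 and Il12rb2 form the IL-12 receptor, which drives helper T cells toward interferon-γ production, and Il12rb1 is also used by IL-23. Il18r1 encodes the ligand-binding chain for IL-18. Ifngr1 and Ifngr2 form the receptor for interferon-γ, and Ifnar1 and Ifnar2 the receptor for type I interferons. Apart from the IL-18 receptor, which signals through MYD88 and IRAK kinases, all of them signal through JAK kinases and STAT factors.

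Libraries held 20554354 to 45222554 counted reads in the CD5/CD6 experiment (median 31680304) and 17784644 to 28501095 in the LAT experiment (median 23430703). Levels are given in CPM, read counts relative to library sizes scaled with TMM factors, and 3 reads corresponded to 0.0663 to 0.146 CPM and 0.105 to 0.169 CPM, respectively. Cd3e, Cd4 and Trac transcripts were present in every library. The targeted genes followed the labels except in 2 libraries at 0 h. In the 0 h library 2 labelled Cd5-/-, Cd5 stood at 719 CPM, against at most 129 CPM in the other two. In the 0 h library 2 labelled Cd6-/-, Cd6 stood at 1202.6 CPM, against at most 349 CPM in the other two. Each of these libraries had levels like those of the other genotype: Cd6 was at 329 CPM in the one labelled Cd5-/-, against 1298.4 and 1083.7 CPM in the other two, and Cd5 was at 172 CPM in the one labelled Cd6-/-, against 724 and 719 CPM. Comparisons with 0 h in both knockouts use them as labelled. In Cd5-/-Cd6-/- libraries both transcripts were below 1 CPM, and Lat stood at 5.69 to 19.1 CPM in Lat-/- libraries against 92.2 to 351 CPM in their WT counterparts. These sorted WT cells had less Lat than enriched WT cells. The means were 249 against 704 CPM at 0 h, 309 against 1223.3 CPM at 4 h, and 98.3 against 532 CPM at 20 h. Its part in differences between the WT cells of the 2 experiments was not tested. B cell and myeloid transcripts were more abundant in enriched than in sorted WT cells at 0 h. A list of 10 B cell markers summed to 391 to 2382.7 CPM in enriched WT cells at 0 h and to 24.7 to 28.5 CPM at 20 h, but to 9.61 to 14.4 CPM and 28.9 to 39.1 CPM in sorted WT cells, where Ms4a1 and Pax5 were at 0 in all libraries at 4 h and 20 h. A list of 10 myeloid markers summed to 189 to 454 CPM in enriched and to 66.9 to 127 CPM in sorted WT cells at 0 h, the latter with Cd14, S100a8, S100a9 and Clec9a at 0. Because RNA came from whole cell samples, fewer cells expressing a gene and less RNA per cell cannot be told apart.

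On the GRCm38 assembly the genes were spread over 7 chromosomes. Il6ra (minus strand) was at chr3:89864059-89913196, Il6st (plus) at chr13:112464070-112510086, Il27ra (minus) at chr8:84030294-84042589 and Il12rb1 (plus) at chr8:70808449-70821424. Il12rb2 (minus) was at chr6:67291318-67376188, Il18r1 (plus) at chr1:40465552-40500854 and Ifngr1 (plus) at chr10:19591949-19610229. The other three lay on the plus strand of chromosome 16 in the order Ifnar2 (chr16:91372783-91405589), Ifnar1 (chr16:91485238-91507441) and Ifngr2 (chr16:91547072-91565623), with the IL-10 receptor gene Il10rb starting 575 bases after Ifnar2. Il18r1 lay 137 bases from Il1rl1, the IL-33 receptor gene, and 14508 bases from Il18rap, which encodes the second chain of the IL-18 receptor.

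The position of Il12rb2 may limit its measurement. Of its 3794 exonic bases, 1519 (40%) overlapped exons of Serbp1, an abundant gene of an RNA-binding protein on the opposite strand. Of 80 genes lying wholly within exons of a well-covered gene on the opposite strand, 0 had any counted read. The same held for 94 such genes on the same strand. This would result if reads falling in 2 genes were left out whatever their strand. For the opposite strand it would also result from counting by strand if none of the 80 genes was transcribed, which was not tested. In the former case the Il12rb2 counts come from the other 2275 bases. Ifnar2 shared 315 of its bases (9.46%) with Gm21970, Il6ra shared 242 (2.8%) with Gm42809, and Il27ra shared 2 with Palm3.

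**Figure D1:**
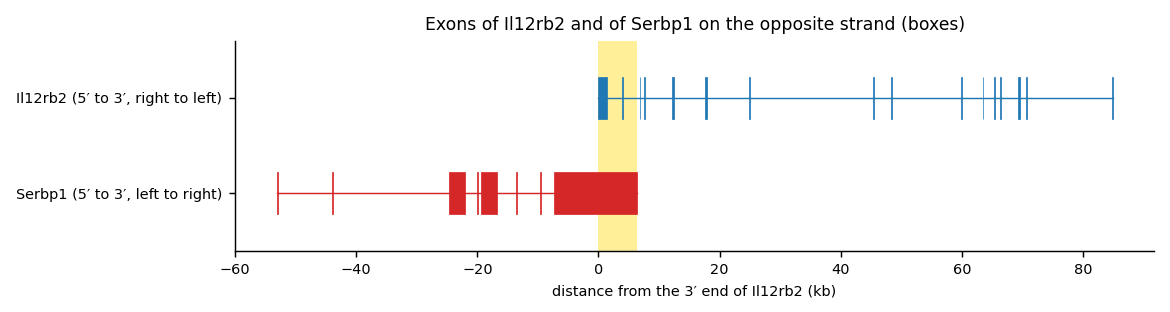
Exons (boxes) of Il12rb2 and Serbp1 by distance in kilobases from the 3′ end of Il12rb2, with the overlapping stretch shaded. The last 2 exons of Il12rb2 lie within the last exon of Serbp1.

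Promoter sequences were compared because several of these genes changed together. RefSeq promoters on GRCm38.p6, taken from 250 bases before to 50 after a start site, were matched for 8 of the 10 genes, all but Il27ra and Il12rb1. Both strands were searched for 6 motifs. TTCNNNGAA, the letters of the gamma-activated site (GAS) to which STAT dimers bind, was found in promoters of 4 genes, against 9.55% of all genes with a promoter. The windows below, each 5′ to 3′ along the gene with the motif in capitals, are shown because they are all of the GAS matches and the single NF-κB match.
Il12rb2, chr6:67376292-67376321, minus strand: gttcccttttTTCTCAGAAccgcactaagc
Il18r1, chr1:40465777-40465806, plus strand: tcggggttagTTCTGGGAActgtggagctc
Il18r1, chr1:40465844-40465873, plus strand: agtacaggtcTTCCCAGAActgaaagcttg
Ifnar1, chr16:91485200-91485229, plus strand: ggcgggggcgTTCACGGAAggggcggggcg
Ifnar2, chr16:91372559-91372588, plus strand: tgccaaggccTTCCTGGAAgaagagagtac
Ifngr2, chr16:91546973-91547002, plus strand: gggaacaccgGGGAAAGTCCccacgggccg

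The last line holds the NF-κB letters, GGGA and TCC separated by any 3 bases, which were in the promoters of 5.21% of genes and also matched on the reverse strand 1 base further on. The remaining motifs were in none of the 8 genes. These were GAAA repeated after any 2 bases (ISRE, 3.99% of genes), TGANTCA (AP-1, 8.97%), CTTTGAA (TCF/LEF, 5.93%) and GTAAACA (FOXO, 4.05%). Matches fell both in genes that rose (Il12rb2) and in genes that fell (Il18r1, Ifnar1 and Ifnar2), as described next. A match is a run of letters and was not tested as a binding site.

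At rest, WT cells had abundant transcripts for 8 of the chains and very few for the IL-12 receptor. Per kilobase of exon, which allows genes to be compared, the highest level in enriched WT cells at 0 h was that of Il27ra, at 79.9 ± 4.86 CPM per kb (SD, n = 3). Ifngr1 followed at 63.1 ± 8.61 CPM per kb and Il6ra at 61.4 ± 2.39 CPM per kb, and the replicates of these last 2 genes overlapped. Il6st was at 32.7 ± 2.15 CPM per kb and Ifnar1 at 27.5 ± 1.67 CPM per kb, without overlap between them. Ifngr2 and Ifnar2 overlapped, at 18.8 ± 0.842 and 17.1 ± 2.43 CPM per kb, and Il18r1 was lower at 12.2 ± 1.0 CPM per kb. Il12rb2 (0.372 ± 0.123 CPM per kb) and Il12rb1 (0.354 ± 0.0822 CPM per kb) overlapped each other at the bottom. With only the bases of Il12rb2 not shared with Serbp1 taken as its length, its level was 0.62 ± 0.206 CPM per kb. In sorted WT cells Il27ra, Ifngr1 and Il6ra were again the highest 3 at 0 h, at 80.5, 71.3 and 52.2 CPM per kb. In enriched WT cells the order had changed by 20 h: Il27ra was still first (36.4 ± 1.7 CPM per kb), Il12rb1 came next (12.6 ± 0.871 CPM per kb) with replicates overlapping those of Ifngr1, and Il18r1 was last (0.232 ± 0.0641 CPM per kb). In sorted WT cells at 20 h Il27ra was likewise first (45.7 ± 3.22 CPM per kb), but Ifngr1 came next without overlap (16.7 ± 0.155 CPM per kb), Il12rb1 was among the lower chains (4.51 ± 0.754 CPM per kb), and Il18r1 (0.488 ± 0.0878 CPM per kb) and Il12rb2 (0.43 ± 0.102 CPM per kb) overlapped at the bottom.

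The first comparison asked how WT cells changed these chains after stimulation. A gene was called when it differed by more than 2-fold with an adjusted p under 0.05 (edgeR quasi-likelihood test, Benjamini-Hochberg adjustment over all genes tested). Log2 fold changes are given with approximate standard errors (SE), worked back from the fold change and its F statistic. Shares of all genes are over the 32290 (enriched) and 27780 (sorted) genes with at least 1 read. A stricter filter on low counts would keep 16143 and 13928 of them. Genes with few reads can seldom be called, which lowers these shares. In enriched cells all 10 chains were called at 20 h: 2 were higher than at 0 h, against 12.3% of all genes, and 8 were lower, against 17.3% of all genes. At 4 h, 2 were higher (8.24% of all genes) and 4 lower (11.1%). From 4 h to 20 h, 1 was higher (8.74%) and 4 lower (12.2%). The median log2 fold change of the 10 at 20 h was -1.59, beside a median of 0.00 over all genes. In sorted WT cells the counts were 2 higher (10.8% of all genes) and 7 lower (12.7%) at 20 h, 1 higher (8.05%) and 4 lower (9.29%) at 4 h, and 1 higher (7.9%) and 4 lower (9.32%) from 4 h to 20 h. The 2 chains that rose by 20 h were in both experiments those of the IL-12 receptor.

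The IL-6 chains fell in different ways. Il6ra stood at 531, 551 and 510 CPM in the 3 enriched WT samples at 0 h, at 148, 209 and 165 CPM at 4 h, and at 59.7, 41.6 and 28.6 CPM at 20 h. The 3 times did not overlap, and the loss was already under way at 4 h (log2 fold change -1.61, SE 0.224, adjusted p = 5.76e-09) and reached -3.61 (SE 0.243, adjusted p = 3.04e-22) at 20 h, a 12.2-fold decrease. Sorted WT samples had values of 508, 330 and 516 CPM, then 180, 196 and 297 CPM, then 42.5, 38.9 and 33.7 CPM. Replicate 2 at 0 h was the low one, the times again did not overlap, and the change at 20 h was -3.56 (SE 0.163, adjusted p = 1.21e-102). The change at 4 h there was -1.01, just past the threshold of fold, and it was -0.99 with the stricter filter on low counts and -0.83 without replicate 1.

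Il6st, in contrast, was not called at 4 h and fell afterwards. Its values in enriched WT cells were 369, 384 and 337 CPM at 0 h, 399, 405 and 310 CPM at 4 h, and 142, 113 and 82.3 CPM at 20 h. The first 2 times overlapped (log2 fold change 0.03, SE 0.204), whereas every sample at 20 h was below every earlier one (-1.69, SE 0.21, adjusted p = 9.07e-11 against 0 h). The values of sorted WT samples at 0 h spread from 160 to 348 CPM, those at 4 h from 244 to 333 CPM, and those at 20 h from 96.5 to 141 CPM. There the fall at 20 h was -1.18 (SE 0.15, adjusted p = 5.17e-14), and -0.81 without replicate 3, which is under the fold threshold.

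Il27ra fell by 4 h. It stood at 267, 272 and 299 CPM at 0 h, 133, 125 and 119 CPM at 4 h, and 134, 122 and 126 CPM at 20 h in enriched WT cells. Its 4 h and 20 h samples overlapped (log2 fold change between them 0.02, SE 0.141), and both were lower than at 0 h (-1.15 and -1.13, adjusted p = 1.35e-10 and 1.41e-10). Sorted WT cells went from 258 to 297 CPM at 0 h to 102 to 128 CPM at 4 h (-1.31, SE 0.151, adjusted p = 7.7e-17). At 20 h it stood at 150 to 172 CPM, above all 4 h samples, and the change from 0 h was -0.82 (SE 0.15), less than 2-fold.

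The chains of the IL-12 receptor were the 2 that rose. Il12rb1 went from 1.53, 1.08 and 1.75 CPM at 0 h through 3.27, 5.02 and 5.22 CPM at 4 h to 55.6, 50.4 and 48.8 CPM at 20 h in enriched WT cells. The times did not overlap, with log2 fold changes of 1.62 (SE 0.337, adjusted p = 5.03e-05) at 4 h and 5.14 (SE 0.358, adjusted p = 1.82e-21) at 20 h, a 35.3-fold rise. Its values in sorted WT cells were 1.06, 0.744 and 2.07 CPM at 0 h, 1.5, 1.79 and 1.43 CPM at 4 h, and 17.8, 21.9 and 15.8 CPM at 20 h. Here the first 2 times overlapped (0.27, SE 0.322, adjusted p = 0.615) and the rise was seen at 20 h (3.82, SE 0.313, adjusted p = 8.9e-33).

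Il12rb2 rose less and stayed scarce. Enriched WT samples had 0.931, 1.87 and 1.43 CPM at 0 h, 2.08, 5.62 and 3.37 CPM at 4 h, and 5.55, 5.53 and 6.43 CPM at 20 h. Both later times lay above 0 h without overlap. The log2 fold changes were 1.39 (SE 0.401, adjusted p = 0.00421) at 4 h and 2.04 (SE 0.403, adjusted p = 1.42e-05) at 20 h, and the one at 4 h was 1.14 with an adjusted p of 0.052 when libraries were scaled to their totals alone. From 4 h to 20 h the change was 0.65, and 1.12 with an adjusted p of 0.0126 without replicate 2. In sorted cells, where WT samples at 0 h held 14, 4 and 11 reads of this gene, the levels were 0.549, 0.165 and 0.385 CPM, then 1.17, 1.74 and 0.566 CPM, then 2.05, 1.29 and 1.55 CPM. The rise was 2.13 (SE 0.52, adjusted p = 0.000193) at 20 h and 1.63 (SE 0.527, adjusted p = 0.00839) at 4 h, but the latter was 0.82 with an adjusted p of 0.349 without replicate 2. Serbp1, the overlapping gene, rose as well, from 592 to 690 CPM at 0 h to 1873.3 to 2360.6 CPM at 20 h in enriched WT cells, and its part in the Il12rb2 result was not tested.

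Il18r1 showed the steepest fall of the 10. Its values in enriched WT cells were 54.3, 63.9 and 57.8 CPM at 0 h, 6.8, 14.6 and 11.4 CPM at 4 h, and 1.21, 0.774 and 1.37 CPM at 20 h. No times overlapped, and the change reached -2.42 (SE 0.254, adjusted p = 3.47e-13) at 4 h and -5.70 (SE 0.31, adjusted p = 2.88e-27) at 20 h, a 52.1-fold decrease. Sorted WT cells gave 61.1, 49.1 and 74.7 CPM, then 14.1, 14 and 18.1 CPM, then 2.14, 2.84 and 2.08 CPM, with a change of -4.70 (SE 0.195, adjusted p = 1.91e-125) at 20 h. Natural killer (NK) cells also express this receptor, and a list of 8 NK markers summed in WT cells to 99.1 to 149 CPM at 0 h and 14.2 to 19.9 CPM at 20 h among enriched cells, and to 85.3 to 120 CPM and 14.2 to 15 CPM among sorted cells. Their part in the fall was not tested.

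Ifngr1 had a wide spread at 4 h, when it was not called, and then fell. In enriched WT cells it stood at 182, 154 and 203 CPM at 0 h, 94.4, 223 and 229 CPM at 4 h, and 36.8, 32 and 35.5 CPM at 20 h. Replicate 1 was the low one at 4 h, and it was the lowest in all 4 genotypes at that time, which also held for Il12rb1, Il12rb2, Il18r1 and Ifngr2. The change was 0.02 (SE 0.22) at 4 h and -2.37 (SE 0.232, adjusted p = 1.44e-14) at 20 h. Sorted WT samples had 181, 222 and 206 CPM, then 189, 195 and 402 CPM, then 47.7, 47 and 47.8 CPM, and here replicate 3 was the high one at 4 h. The fall by 20 h was -2.10 (SE 0.154, adjusted p = 1.63e-40).

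Ifngr2, its partner chain, also fell. The WT values were 73.9, 67.5 and 70.7 CPM at 0 h, 23.7, 42.3 and 39.9 CPM at 4 h, and 25.3, 22.1 and 22.2 CPM at 20 h among enriched cells, with 0 h above both later times. The change at 20 h was -1.61 (SE 0.169, adjusted p = 2.39e-13). At 4 h the level was 2.0-fold lower (adjusted p = 5.43e-07), at the fold threshold itself, and the log2 change was -0.94 in a fit of the compared groups alone and -0.75 without replicate 1. Among sorted WT cells Ifngr2 fell from 78.2 to 83.3 CPM at 0 h to 30.3 to 32.2 CPM at 20 h (-1.38, SE 0.156, adjusted p = 1.1e-17), with 48.3 to 75.4 CPM at 4 h. The change from 4 h to 20 h there was -0.90, and -1.02 without replicate 2.

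The type I interferon receptor chains both fell by 20 h. Ifnar1 stood at 173, 164 and 153 CPM at 0 h, 96.2, 114 and 98.6 CPM at 4 h, and 61.9, 55.4 and 47.4 CPM at 20 h in enriched WT cells. The 3 times did not overlap, and the change was -0.67 at 4 h, under the fold threshold, and -1.57 (SE 0.165, adjusted p = 2.34e-13) at 20 h. From 4 h to 20 h it was -0.91, and -1.05 without replicate 1. Ifnar2 had 51.2, 53.1 and 66.1 CPM at 0 h, 27.9, 30.8 and 31.6 CPM at 4 h, and 28.1, 28.3 and 25.8 CPM at 20 h, with the later times overlapping. Its change at 4 h was -0.92, and it was -1.01 without replicate 2 and -1.16 with library totals alone. The change of -1.05 (SE 0.162, adjusted p = 5.44e-08) at 20 h was -0.89 without replicate 3. Among sorted WT cells Ifnar1 changed by -1.20 (SE 0.151, adjusted p = 2.28e-14) and Ifnar2 by -1.08 (SE 0.161, adjusted p = 1.28e-10) at 20 h, the latter -0.95 without replicate 3. Il10rb, which lies between them, fell by 1.15 on the log2 scale (SE 0.161, adjusted p = 4.99e-09) at 20 h in enriched WT cells.

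**Figure D2:**
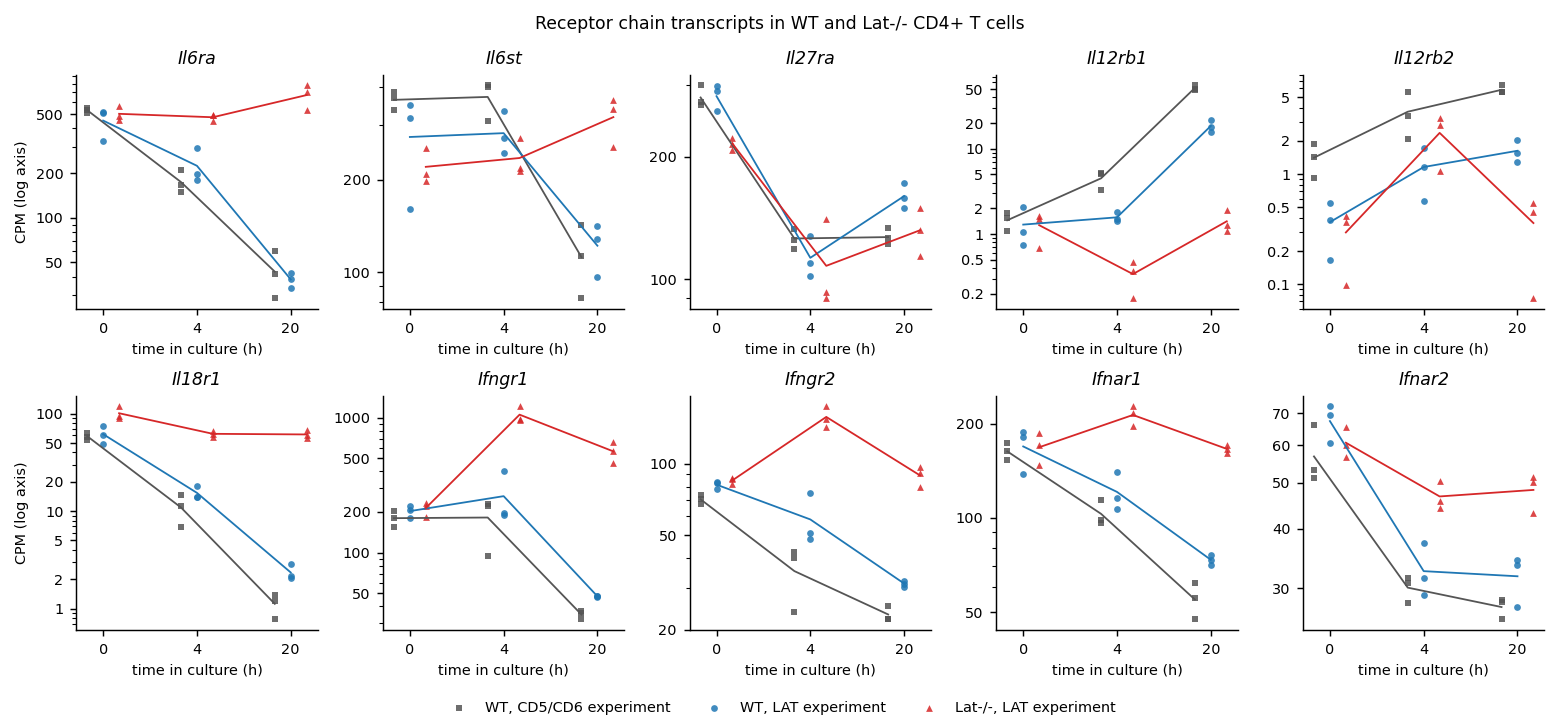
Level of each chain in CPM (log axis) at 0, 4 and 20 h in WT cells of both experiments and in Lat-/- cells; points are samples (3 per condition) and lines join the means, with the times spaced evenly. At 20 h, Il6ra, Il6st, Il18r1, Ifngr1, Ifngr2, Ifnar1 and Ifnar2 in every Lat-/- sample lay above every WT sample, and Il12rb1 and Il12rb2 below.

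The second comparison asked what happened without LAT. In Lat-/- cells few of the chains were called: at 20 h 1 was higher than at 0 h (2.14% of all genes), Ifngr1, and 0 were lower (2.07%). With the adjusted p alone, 3 were higher (5.35% of all genes) and 2 lower (5.34%), and 6 had an unadjusted p under 0.05 (18.7%). At 4 h, 2 were higher (3.08%), Ifngr1 and Il12rb2, and 1 was lower (3.62%), Il12rb1. Between 4 h and 20 h, Il12rb1 rose (2% of all genes called higher) and Il12rb2 fell (2.1% called lower). The median log2 fold change of the 10 chains at 20 h was 0.10 in Lat-/- cells, beside -1.19 in WT cells of the same experiment and 0.00 over all genes in either.

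Untreated Lat-/- and WT cells were compared first. At 0 h, 0 of the 10 were called higher (0.148% of all genes) and 0 lower (0.814%), with 3 at an unadjusted p under 0.05 (6.09% of all genes) and 1 at an adjusted p under 0.05 (1.59%). This one was Il18r1, at 89.7, 94.6 and 119 CPM in Lat-/- samples and 61.1, 49.1 and 74.7 CPM in WT samples, which did not overlap (log2 fold change 0.71, SE 0.158, adjusted p = 0.000823, less than 2-fold). The NK marker list summed to 141 to 186 CPM in these Lat-/- samples and to 85.3 to 120 CPM in the WT samples. Of its markers, Ncr1, Klrb1c and Gzma were at most 1.76, 3.02 and 15.2 CPM in any of these samples. The part of NK cells was not tested.

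After stimulation the populations parted. At 4 h, 4 chains were higher in Lat-/- than in WT cells (5.51% of all genes) and 1 lower (6.23%). At 20 h, 6 were higher (12.1%) and 2 lower (12.3%). A chain could differ at a time without differing in its change from 0 h, so the difference of response (Lat-/- minus WT, an interaction term) was tested too. It was called higher for 3 chains (4.37% of all genes) and lower for 1 (4.34%) at 4 h, and higher for 6 (10.1%) and lower for 1 (9.35%) at 20 h.

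Il6ra was not called lower at either time in Lat-/- cells. The Lat-/- samples had 485, 455 and 565 CPM at 0 h, 446, 490 and 492 CPM at 4 h, and 704, 783 and 529 CPM at 20 h, when the WT samples had 33.7 to 42.5 CPM. The samples at 0 h overlapped those at both later times, and at 20 h the genotypes differed by 4.13 (log2, SE 0.168, adjusted p = 3.37e-131), or 17.5-fold. The response differed by 3.98 (SE 0.216, adjusted p = 1.2e-72) at 20 h. At 4 h the genotypes differed by 1.08 (SE 0.149), which was just under 2-fold without replicate 2, and the response by 0.93, which was 1.16 without replicate 3 and 1.08 with library totals alone.

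Il6st also differed between the genotypes at 20 h, by less. Its Lat-/- values were 208, 198 and 254 CPM at 0 h, 273, 213 and 218 CPM at 4 h, and 340, 362 and 255 CPM at 20 h, against 96.5 to 141 CPM in WT samples at 20 h. At 4 h the genotypes overlapped (log2 difference -0.27, SE 0.148), and at 20 h they did not (1.39, SE 0.151, adjusted p = 4.12e-19). The responses at 20 h differed by 1.71 (SE 0.211, adjusted p = 1.18e-14).

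Il27ra was lower after stimulation in cells of either genotype, in Lat-/- cells by less than 2-fold. In Lat-/- cells it went from 215, 208 and 222 CPM at 0 h to 93.2, 89.9 and 141 CPM at 4 h and 132, 114 and 150 CPM at 20 h. All stimulated samples were below all untreated ones, but the changes of -0.99 (SE 0.15, adjusted p = 1.6e-09) at 4 h and -0.70 (SE 0.15, adjusted p = 7.29e-05) at 20 h were less than 2-fold, and the former was -1.21 without replicate 3 and -1.07 with library totals alone. The difference of response from WT cells was 0.32 (SE 0.211) at 4 h and 0.11 (SE 0.21) at 20 h.

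Neither IL-12 receptor chain was called higher at 20 h than at 0 h in Lat-/- cells. Il12rb1 had 14, 32 and 40 reads (0.691, 1.49 and 1.63 CPM) at 0 h, 9, 3 and 9 reads (0.372, 0.176 and 0.468 CPM) at 4 h, and 25, 29 and 45 reads (1.26, 1.08 and 1.89 CPM) at 20 h. The 4 h samples were the lowest (-1.87 from 0 h, SE 0.407, adjusted p = 6.94e-05), and at 20 h Lat-/- cells were below WT cells by 3.71 (log2 fold change -3.71, SE 0.313, adjusted p = 5.14e-31), or 13.1-fold. The difference of response was -3.69 (SE 0.45, adjusted p = 5.95e-15) at 20 h and -2.14 (SE 0.522, adjusted p = 0.00056) at 4 h, the latter -1.35 with an adjusted p of 0.128 without replicate 2.

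Il12rb2 moved early and came back. It had 2, 9 and 9 reads at 0 h in Lat-/- samples, 68, 18 and 62 reads at 4 h (2.81, 1.06 and 3.23 CPM), and 9, 2 and 13 reads at 20 h. The 4 h samples were above all others (2.97 from 0 h, SE 0.543, adjusted p = 1.1e-06; -2.75 from 4 h to 20 h, SE 0.532, adjusted p = 8.58e-06). At 20 h the level was below that of WT cells (-2.20, SE 0.532, adjusted p = 0.000153). At 4 h the genotypes overlapped (1.04, SE 0.474, adjusted p = 0.103), and without replicate 2 the difference was 1.84 (adjusted p = 0.00195) and the difference of response 2.78 (adjusted p = 0.0075). With the compared groups alone the difference at 4 h was 1.04 with an adjusted p of 0.0431. The difference of response at 20 h was -1.90 (SE 0.805, adjusted p = 0.0663), and it was -2.70 with an adjusted p of 0.0345 without replicate 1. Serbp1 went from 637 to 782 CPM at 0 h to 741 to 860 CPM at 4 h and 662 to 755 CPM at 20 h in Lat-/- cells, and its part was not tested.

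For Il18r1 the gap between the genotypes at 20 h was the widest of the 10. Lat-/- samples had 66.9, 62.4 and 57.1 CPM at 4 h and 67.2, 60.7 and 55.7 CPM at 20 h, against 14 to 18.1 CPM and 2.08 to 2.84 CPM in WT samples. The genotypes differed by 4.69 (SE 0.195, adjusted p = 7.68e-125) at 20 h, or 25.8-fold, and the responses by 3.98 (SE 0.245, adjusted p = 8.47e-57). The NK marker list summed to 107 to 151 CPM in Lat-/- samples and to 14.2 to 15 CPM in WT samples at 20 h. In those Lat-/- samples 7 of its 8 markers had reads and Ncr1 was at 0. Klrb1c and Gzma were at most 0.294 and 2.19 CPM in any sorted sample at 20 h. Other markers of the list thus made up most of the Lat-/- sum. The part of NK cells in the difference was not tested.

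Ifngr1 was the chain called higher at both times in Lat-/- cells. In the Lat-/- samples it went from 185, 234 and 223 CPM at 0 h to 981, 961 and 1212.4 CPM at 4 h and was at 661, 562 and 463 CPM at 20 h. The times did not overlap. The rise was 2.30 (SE 0.154, adjusted p = 1.2e-47) at 4 h and 1.39 (SE 0.15, adjusted p = 2.43e-18) at 20 h, while from 4 h to 20 h it fell by 0.90 on the log2 scale, and by 1.07 without replicate 1. The level at 20 h was 11.8-fold that of WT cells (log2 3.56, SE 0.163, adjusted p = 2.77e-103). The difference of response was 1.93 (SE 0.21, adjusted p = 7.85e-18) at 4 h and 3.49 (SE 0.215, adjusted p = 7.92e-57) at 20 h. Per kilobase, Ifngr1 was the first of the 10 chains in Lat-/- cells at 0 h already, at 75.1 ± 9.15 CPM per kb, without overlap with Il27ra at 61.5 ± 1.98 CPM per kb, and it was also first at 4 h and at 20 h, when it stood at 197.0 ± 34.8 CPM per kb.

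Ifngr2 also stood higher at 4 h, by less than its partner, but not at 20 h. Its Lat-/- values were 86, 81.9 and 87.1 CPM at 0 h, 154, 174 and 142 CPM at 4 h, and 96.7, 90.8 and 79.8 CPM at 20 h. Samples at 4 h were above the others, by 0.88 (SE 0.153, adjusted p = 2.33e-07) over 0 h, less than 2-fold. Samples at 20 h overlapped those at 0 h (log2 fold change 0.07, SE 0.152, adjusted p = 0.98), unlike those of Ifngr1. The response differed from that of WT cells by 1.37 (SE 0.216, adjusted p = 1.07e-08) at 4 h and 1.45 (SE 0.217, adjusted p = 3.62e-10) at 20 h.

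Ifnar1 and Ifnar2 separated the genotypes least among the chains that fell in WT cells by 20 h, leaving out Il27ra. Ifnar1 had 171, 147 and 186 CPM at 0 h, 216, 227 and 197 CPM at 4 h, and 171, 161 and 166 CPM at 20 h in Lat-/- samples, against 70.5 to 76.3 CPM in WT samples at 20 h. It differed at 20 h by 1.18 between genotypes (SE 0.151, adjusted p = 6.66e-14) and by 1.18 in response (SE 0.212, adjusted p = 2.3e-07). Ifnar2 had 51.3, 43.3 and 50.3 CPM at 20 h in Lat-/- samples and 33.6, 34.4 and 27.4 CPM in WT samples, which did not overlap but differed less than 2-fold (0.60, SE 0.16, adjusted p = 0.000681).

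**Figure D3:**
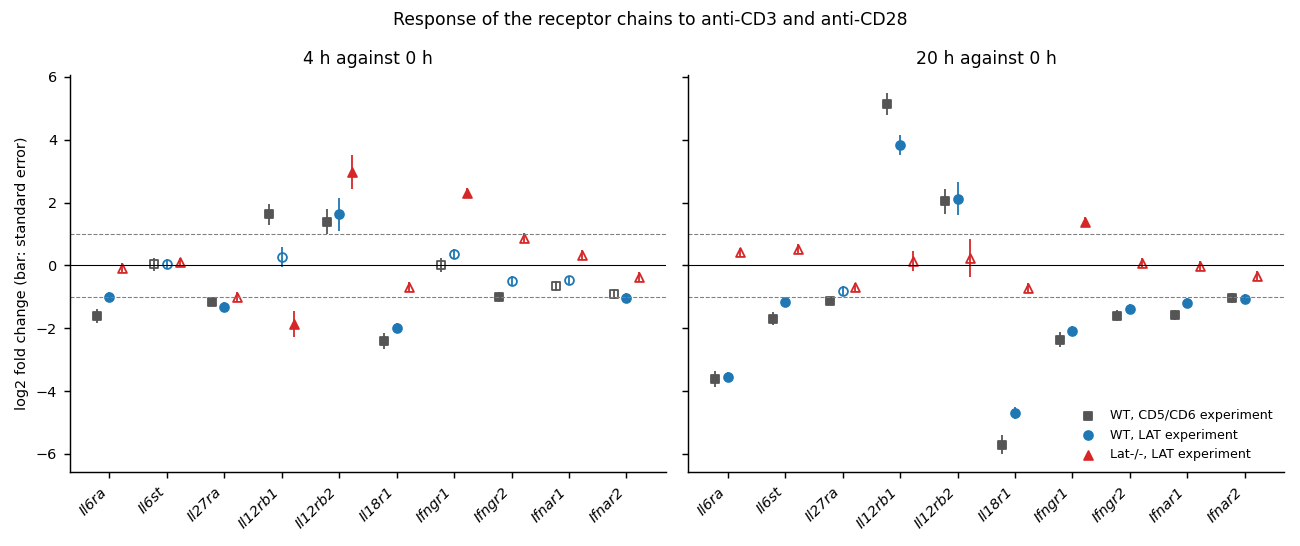
Log2 fold change of each chain from 0 h to 4 h and to 20 h in WT cells of both experiments and in Lat-/- cells, with standard errors; filled symbols passed both thresholds, open ones did not, and dashed lines mark a 2-fold change. At 20 h both WT series have Il12rb1 and Il12rb2 above 0 and the other eight below, while the Lat-/- values are between -0.72 and 1.39.

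Other genes of these pathways were examined with lists. Of 12 genes that signal downstream of these receptors, 0 were higher (12.3% of all genes) and 4 lower (17.3%) at 20 h in enriched WT cells: Stat2 (-2.75), Irf9 (-1.94), Jak1 (-1.85) and Irak4 (-1.04). In sorted WT cells 4 were also lower at 20 h (12.7% of all genes). In Lat-/- cells 0 were called higher (2.14%) or lower (2.07%), with 8 at an unadjusted p under 0.05 (18.7%). Between the genotypes at 20 h, 5 of the 12 were higher in Lat-/- cells (12.1%) and 0 lower (12.3%). The median of the list was -0.66 in enriched WT cells at 20 h and 0.60 for Lat-/- against WT cells, beside 0.00 over all genes in each comparison. Jak1, the kinase shared by the IL-6 and interferon receptors, stood at 1919.1, 2111.1 and 1562.1 CPM in Lat-/- samples and at 505, 519 and 423 CPM in WT samples at 20 h, without overlap (1.95, SE 0.15, adjusted p = 2.82e-37). Irf9, part of the factor that type I interferon activates, stood at 289, 161 and 278 CPM against 27.7, 30.2 and 30.3 CPM (3.04, SE 0.162, adjusted p = 8.81e-77).

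Of 10 genes induced by interferons or IL-6, 7 were lower (17.3% of all genes) and 0 higher (12.3%) at 20 h in enriched WT cells, among them Irf7 (-5.97), Oas1a (-4.80), Ifit3 (-4.62) and Isg15 (-4.07). Among sorted cells 9 of these 10 were lower in WT cells (12.7%) and 5 in Lat-/- cells (2.07%) at 20 h, and 8 were higher in Lat-/- than in WT cells (12.1%). The median of the list at 20 h was -3.92 in enriched WT cells, -4.31 in sorted WT cells and -1.02 in Lat-/- cells. Irf7 stood at 113, 124 and 94.1 CPM at 0 h and 1.71, 1.36 and 1.68 CPM at 20 h in WT samples, and at 114, 98.7 and 101 CPM and 65.2, 28.9 and 65.3 CPM in Lat-/- samples. Replicate 2 was the low one of the Lat-/- samples at 20 h for Irf7, and also for Irf9. Socs3 belongs both to this list and to the list of brakes described next.

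Among 8 genes of brakes on these pathways and of sheddases, 3 were lower (17.3% of all genes) and 0 higher (12.3%) at 20 h in enriched WT cells: Usp18 (-3.19), which restrains the type I interferon receptor, Socs3 (-3.02), which restrains gp130, and Il18bp (-2.36), the secreted IL-18 binding protein. At 20 h 4 of the 8 were higher in Lat-/- than in WT cells (12.1%). Socs3 was higher in Lat-/- cells already at 0 h, at 366, 296 and 456 CPM against 155, 159 and 215 CPM (1.08, SE 0.15, adjusted p = 3.41e-10). It fell in Lat-/- cells as well, to 92.2, 86.6 and 114 CPM at 20 h. In Lat-/- cells 2 of the 8 genes were lower (2.07% of all genes) and 0 higher (2.14%) at 20 h than at 0 h. The list medians were -0.50 in enriched WT cells and 1.00 between the genotypes. Of 11 related receptor chains (median -1.89), 6 were lower (17.3%) and 0 higher (12.3%) at 20 h in enriched WT cells, and those with enough reads were Il18rap (-2.34), Il10ra (-2.26) and Il10rb (-1.15). Il18rap, the partner of Il18r1, stood at 0.984, 1.03 and 1.81 CPM in WT samples and 2.07, 1.22 and 1.98 CPM in Lat-/- samples at 20 h, with the genotypes overlapping, whereas those of Il18r1 did not. Il10ra, the IL-10 receptor chain, was at 11, 11.1 and 13.6 CPM in WT samples and 35.7, 46.8 and 46.1 CPM in Lat-/- samples (1.85, SE 0.179, adjusted p = 9.72e-24). Of the 10 related chains tested in sorted cells, it was the 1 called higher in Lat-/- than in WT cells at 20 h (12.1% of all genes). Of the same chains, 0 were called lower (12.3%).

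Few transcripts of the ligands were counted. Of 9 ligand genes, 4 were higher (8.24% of all genes) and 1 lower (11.1%) at 4 h in enriched WT cells, and 0 were higher (12.3%) and 2 lower (17.3%) at 20 h, and those called at 20 h had a mean below 50 counts. Ifng, chosen after its values were seen, encodes the ligand of the Ifngr1 and Ifngr2 receptor and stood at 13.5, 1.94 and 5.77 CPM in Lat-/- samples and 0.841, 0.962 and 0.792 CPM in WT samples at 4 h, which did not overlap (3.04, SE 0.419, adjusted p = 8.86e-12). At 20 h the Lat-/- samples had 2.63, 0.297 and 3.24 CPM of Ifng and the WT samples 0.257, 0.295 and 0.177 CPM. Il6, likewise chosen afterwards, had 0.315, 1.68 and 1.17 CPM at 4 h in enriched WT cells, whose B cell markers then summed to 257 to 893 CPM, and at most 0.0754 CPM in sorted WT cells at the same time, whose B cell markers summed to 18.9 to 22 CPM. The part of other cells in the Il6 reads was not tested.

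**Figure D4:**
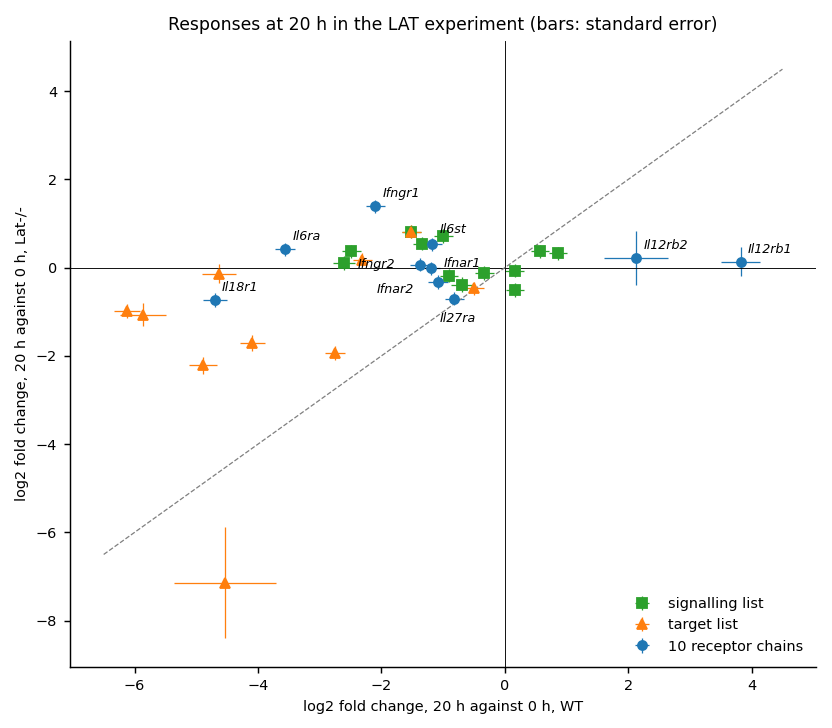
Log2 fold change at 20 h in WT cells (horizontal axis) and in Lat-/- cells (vertical axis) of the LAT experiment for the 10 receptor chains, the 12 signalling genes and the 10 target genes, with standard errors; the dashed line marks equal change. Il18r1 (-4.70 in WT, -0.72 in Lat-/-) and Il6ra (-3.56 and 0.42) lie far above the line, and Il12rb1 (3.82 and 0.14) far below it.

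The third comparison asked whether the absence of CD5, CD6 or both altered these chains. The responses themselves were present in each genotype: at 20 h all 10 chains were called in Cd5-/- cells (30% of all genes called in either direction), Cd6-/- cells (28.2%) and Cd5-/-Cd6-/- cells (30.3%), with Il12rb1 and Il12rb2 higher and the other eight lower. At 4 h, 7 were called in Cd5-/- cells (19.5% of all genes), 5 in Cd6-/- cells (18%) and 5 in Cd5-/-Cd6-/- cells (17.2%). Ifnar2 at 4 h in Cd5-/- cells was -0.97 without replicate 3 in place of -1.07, and at 20 h in Cd5-/-Cd6-/- cells it was -1.24, but just under 2-fold without replicate 3. The counts of called chains in Cd5-/- and Cd6-/- cells were the same without both 0 h libraries 2 whose targeted genes went against their labels.

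Set against WT cells, 0 of the 10 chains were called in any knockout at any time with edgeR, as with DESeq2. Among all genes, 0.0619%, 0.0743% and 0.0186% were called in Cd5-/- cells (0, 4 and 20 h), 0%, 0.0031% and 0.0186% in Cd6-/- cells, and 0.0248%, 0.0434% and 0.0434% in the double knockout. At an unadjusted p under 0.05 there were 5 chains at 4 h in Cd6-/- cells (2.74% of all genes) and 5 in Cd5-/-Cd6-/- cells (2.76%), 1 at 20 h in each of the 3 knockouts, and 0 in the remaining comparisons. The differences of response from WT cells were likewise called for 0 of the 10 chains (0.0031% of all genes at both times in Cd5-/- cells, 0% at 4 h and 0.0031% at 20 h in Cd6-/- cells, and 0% at both times in Cd5-/-Cd6-/- cells), with 2 at an unadjusted p under 0.05 at 4 h and 1 at 20 h in Cd6-/- cells and 4 at 4 h in Cd5-/-Cd6-/- cells. Over all genes the share at an unadjusted p under 0.05 was 1.68% to 3.39% in these 15 comparisons. In the difference of response of Cd5-/-Cd6-/- cells at 4 h, Il12rb2 (1.72, adjusted p = 0.0177) and Il18r1 (1.04, adjusted p = 0.0106) passed without replicate 3. With the replicate number as a block, calls against WT cells over all genes rose from 20 to 61 at 0 h and from 24 to 79 at 4 h for Cd5-/- cells, from 1 to 18 at 4 h for Cd6-/- cells, and from 8 to 18, 14 to 25 and 14 to 23 at the 3 times for Cd5-/-Cd6-/- cells, among them 1 chain, Il12rb2.

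Il12rb2 was the chain that came closest to a difference. At 4 h its levels in replicates 1, 2 and 3 were 2.08, 5.62 and 3.37 CPM in WT cells, 2.8, 9.04 and 4.23 CPM in Cd5-/- cells, 2.29, 9.96 and 8 CPM in Cd6-/- cells, and 3.83, 20.2 and 10.5 CPM in Cd5-/-Cd6-/- cells. Replicate 1 was the lowest and replicate 2 the highest in all 4 genotypes, and within each replicate number all 3 knockouts were above WT, although the groups overlapped. The log2 difference of Cd5-/-Cd6-/- from WT cells was 1.64 (SE 0.38, adjusted p = 0.0959). Samples with the same number deviated together in this comparison, and with the replicate number as a block the difference was 1.54 with an adjusted p of 0.000344, past both thresholds. It also passed without replicate 1 (1.77, adjusted p = 2.94e-05) and without replicate 3 (1.64, adjusted p = 5.23e-07). A list of 7 γδ T cell markers summed to 66.7 to 90.4 CPM in these Cd5-/-Cd6-/- samples and 26.1 to 31 CPM in the WT samples. The same list summed to 63.5 to 69 CPM in Cd5-/- samples and 22 to 34.7 CPM in Cd6-/- samples at 4 h. Serbp1 stood at 1449.9 to 2004.2 CPM in the Cd5-/-Cd6-/- samples and 1655.9 to 1868.5 CPM in the WT samples. The part of γδ T cells or of Serbp1 was not tested.

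At 20 h Il12rb2 had 5.55, 5.53 and 6.43 CPM in WT cells, 8.08, 13.5 and 7.84 CPM in Cd5-/- cells, 6.51, 12.9 and 12.3 CPM in Cd6-/- cells, and 8.45, 16.3 and 8.28 CPM in Cd5-/-Cd6-/- cells. Here the groups did not overlap, every knockout sample lying above every WT sample, and the log2 differences were 0.75 (SE 0.372), 0.86 (SE 0.373) and 0.92 (SE 0.372), with adjusted p = 1 for each. The last was 1.16 with an adjusted p of 0.00472 without replicate 3. At 0 h the 4 genotypes overlapped, at 0.589 to 1.92 CPM.

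Il12rb1 at 4 h went with it in Cd5-/-Cd6-/- cells, at 3.73, 14.2 and 5.84 CPM against 3.27, 5.02 and 5.22 CPM in WT cells (0.82, SE 0.307, adjusted p = 1), and the difference was 1.12 with an adjusted p of 1.09e-06 without replicate 3. In Cd6-/- cells Il12rb1 was at 3.27, 10.8 and 10.9 CPM (0.88, SE 0.307, adjusted p = 1), which was 1.08 with an adjusted p of 0.00964 without replicate 1. Ifngr1 at 4 h stood at 188, 355 and 339 CPM in Cd6-/- cells and at 155, 344 and 421 CPM in Cd5-/-Cd6-/- cells, against 94.4, 223 and 229 CPM in WT cells and 91.6, 160 and 172 CPM in Cd5-/- cells. The first 2 groups were above WT within each replicate number but overlapped it as groups (0.69, SE 0.221, adjusted p = 0.885; 0.75, SE 0.221, adjusted p = 0.553). The other chains differed from WT by at most 0.70 on the log2 scale at any time in any knockout.

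**Figure D5:**
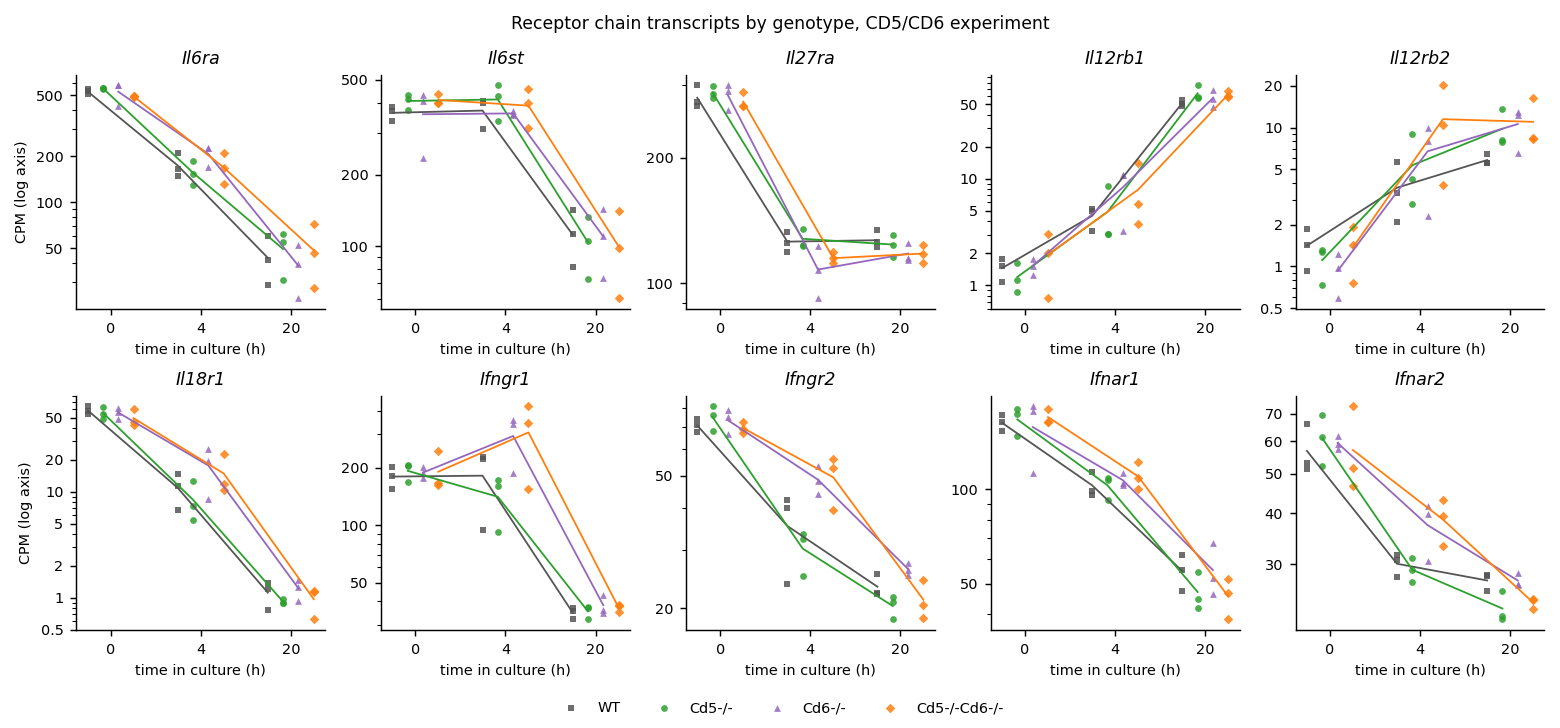
Level of each chain in CPM (log axis) at 0, 4 and 20 h in WT, Cd5-/-, Cd6-/- and Cd5-/-Cd6-/- cells; points are samples (3 per condition) and lines join the means, with the times spaced evenly. By 20 h each chain has moved in the same direction in all 4 genotypes, and at 4 h for Il12rb2 Cd5-/-Cd6-/- samples reach 20.2 CPM and WT samples 5.62 CPM.

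Likeness of pattern was described by Pearson's r of mean log2 CPM over the 18 conditions, centred within each experiment, over the 10086 genes averaging 50 or more reads per library in each of the tables. No test is given, since conditions of an experiment share genotypes, times and library scaling, and Il12rb2 was too scarce to enter. Il6ra was most like Madd (r = 0.996) and Rbms1 (r = 0.995), and Il6st most like Xkrx and Gm28370 (both r = 0.988). Il27ra was most like Acap3 (r = 0.986) and Ehbp1l1 (r = 0.983), and Il12rb1 most like Mcph1 and Desi1 (both r = 0.986). The genes nearest to Il18r1 were Ifi209 (r = 0.997) and Ddx58 (r = 0.996), and those nearest to Ifngr1 were Wdr37 (r = 0.984) and Vps37b (r = 0.979). Those nearest to Ifngr2 were Arid5a (r = 0.986) and Dusp10 (r = 0.983), to Ifnar1 Atf7ip (r = 0.993) and Kansl1 (r = 0.992), and to Ifnar2 Mndal (r = 0.987) and Cyth1 (r = 0.986). Among the chains themselves Il6ra and Il18r1 were the closest pair (r = 0.984), Ifngr1 and Ifngr2 had r = 0.865, Ifnar1 and Ifnar2 r = 0.880, Il6ra and Il6st r = 0.857, and Il27ra and Ifngr1 were the least alike of the chains that fell (r = 0.110). Il12rb1 ran against each of the others, from r = -0.533 with Il27ra to r = -0.982 with Ifnar1.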

How the data were processed

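RNA was measured in 54 mouse CD4+ T cell samples (36 and 18, in 2 tables). The authors sequenced single reads from stranded mRNA libraries, removed adapters (DimerRemover), aligned to GRCm38 (STAR) and assigned reads to genes (featureCounts). The deposited values are raw counts. How strand and reads in overlapping genes were handled is not given in the sources used here; what the tables show is described with Il12rb2. The 2 tables were fitted separately, and 0 sample columns were left unused. Of 55385 identifiers, 55144 were named from the GENCODE annotation of GRCm38.

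Counts were analysed in R 4.3.3 with edgeR 4.0.16 (quasi-likelihood test, TMM factors, all samples of an experiment in 1 fit, Benjamini-Hochberg adjustment), limma 3.58.1 and DESeq2 1.42.0, keeping genes with at least 1 read (32290 and 27780). Calls needed a fold change over 2 and an adjusted p under 0.05. The edgeR and DESeq2 fits were tested on simulated counts, for Cd5-/- and Lat-/- against WT cells at 20 h and their differences of response. The simulated counts had the same spread for all genes, and only well-covered genes were changed, in a single group. They had no effect of time or of replicate number. They therefore do not bear on scarce chains or on samples that deviate together. The other steps were not tested in this way. Depth limits the scarce IL-12 receptor chains, and floors of 3 reads cover counting error only. The submitters describe the 3 samples of a condition as biological replicates, from tissue pooled over an unstated number of mice. Alternatives were DESeq2, RLE factors, library totals alone, a filter on low counts, the compared groups alone, a replicate block, the adjusted p alone, leaving out each replicate number from all groups, and leaving out both 0 h libraries 2 labelled Cd5-/- and Cd6-/-; length without shared exons was added after seeing the data.

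Samples with the same number deviated together (every correlation of deviations over 0.1) in all comparisons of 2 conditions in the CD5/CD6 experiment except 4 h against 0 h in Cd6-/- cells, and in the LAT experiment for 20 h against 0 h in Lat-/- cells and for the genotypes at 0 h; the numbers come from the labels, which do not say what they share. The members and lists were chosen with earlier results of these data known. All 10 chains were named; from each list, up to 4 called genes with the largest change at 20 h in enriched WT cells and a mean of at least 50 counts.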

Additional observations from a re-analysis of the deposited data

Results flagged for a closer look

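The response of Lat-/- cells differed from that of WT cells for several chains by a test of the difference itself (edgeR interaction term). At 4 h the differences, on the log2 scale, were 1.93 for Ifngr1, 1.37 for Ifngr2, 1.30 for Il18r1 and -2.14 for Il12rb1. At 20 h they were 3.98 for Il6ra, 3.98 for Il18r1, 3.49 for Ifngr1, 1.71 for Il6st, 1.45 for Ifngr2, 1.18 for Ifnar1 and -3.69 for Il12rb1. At 20 h every Lat-/- sample lay outside the range of the WT samples for each of these chains.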

How the results depend on the processing

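Of 360 counts of called chains recomputed under alternatives, 345 stayed within 1.5 times the reported count and 15 did not. With the adjusted p alone, the count became 9 of 10 at 4 h in Cd6-/- and in Cd5-/-Cd6-/- cells, 8 in sorted WT cells at 4 h and from 4 h to 20 h, 6, 5 and 6 in Lat-/- cells (4 h, 20 h, and 4 h to 20 h), 1 between Lat-/- and WT cells at 0 h, and 7 for their difference of response at 4 h. With the replicate block, 1 chain (Il12rb2) was called between Cd5-/-Cd6-/- and WT cells at 4 h. Leaving out 1 replicate number gave 0 to 1 called chains between Cd6-/- and WT cells at 4 h, 0 to 2 between Cd5-/-Cd6-/- and WT cells at 4 h, 0 to 1 at 20 h, and 0 to 2 for their difference of response at 4 h. Of 1229 log2 fold changes of single chains, 14 lost the call, 25 gained it and 0 reversed. These values cover only the 133 pairs of a chain and a comparison that were called under at least 1 setting. Reversals were thus unlikely from the start. DESeq2 and RLE factors changed 0 calls. The block added Il27ra in Lat-/- cells at 4 h (-1.01) and the difference of response of Il12rb2 at 20 h (-2.02, adjusted p = 0.0312), where the numbers were not found to pair the samples, and changed no other call of a chain. Across all genes the block raised the calls between Cd5-/-Cd6-/- and WT cells at 4 h from 14 to 25. Scaling to library totals alone moved 13 of 90 mean levels by more than their SD. The causes of these changes were not tested. Reads of Il12rb2 are few and, if reads falling in 2 genes were left out, come from part of the gene, which limits its values.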
